A study of Mus musculus with 6 samples.

Results

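The genes described here encode MHC class II molecules and the proteins that load and switch them on. The members were 8 genes taken by name: H2-Aa, H2-Ab1, H2-Eb1, H2-DMa, H2-DMb1, H2-DMb2, Cd74 and Ciita. All 8 were found by gene symbol among the 23808 genes of the deposited table. They were read in mRNA-seq libraries from hearts of wild-type (WT) female mice, 3 libraries on normal chow (NC) and 3 on a high-fat diet (HFD). Both diets ran from 4 to 12 weeks of age. The labels give no strain and no further treatment, and they do not say whether each library is a different mouse. The p-values therefore rest on library-to-library spread, part of which may be technical. Values are FPKM, a fragment count divided by gene length and by library size, so levels of different genes can be set side by side. Depth is unknown, because FPKM values keep no read counts and none could be recovered.

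MHC class II molecules display peptides from swallowed or internalised proteins to CD4+ T cells. An alpha and a beta chain pair in the endoplasmic reticulum and are held by the invariant chain, the product of Cd74, whose remnant fills the peptide groove until the DM molecule exchanges it for an antigenic peptide. The proteins are made mainly by dendritic cells, B cells and macrophages. Their transcription needs the coactivator CIITA, which does not bind DNA itself but docks onto factors sitting on the X and Y boxes of class II promoters. In the heart, resident macrophages and dendritic cells are the usual carriers of class II.

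The promoters are shown because this X and Y arrangement is what ties the class II genes to one coactivator. RefSeq sequences of build GRCm38.p6 were at hand for 5 of the 8 members, with 6 starts. Each line gives the 140 bases before the transcription start, read 5′ to 3′ on the gene's strand. Capitals mark a Y box core, TGATTGG, and either of 2 X box cores, AACNGATG or GCAAC, searched on both strands. The cores can overlap, as in H2-Eb1, and the letters were set with these promoters in view.
H2-Aa, chr17:34287824-34287963, minus strand: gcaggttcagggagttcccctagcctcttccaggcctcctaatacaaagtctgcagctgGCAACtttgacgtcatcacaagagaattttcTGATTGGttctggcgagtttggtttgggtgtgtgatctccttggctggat
H2-Eb1, chr17:34305727-34305866, plus strand: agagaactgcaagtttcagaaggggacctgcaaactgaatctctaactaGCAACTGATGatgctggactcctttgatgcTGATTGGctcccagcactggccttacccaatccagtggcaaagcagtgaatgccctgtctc
H2-DMb1, chr17:34153051-34153190, plus strand: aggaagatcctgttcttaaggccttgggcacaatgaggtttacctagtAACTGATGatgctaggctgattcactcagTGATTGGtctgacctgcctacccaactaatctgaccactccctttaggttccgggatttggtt
H2-DMb2, chr17:34145109-34145248, plus strand: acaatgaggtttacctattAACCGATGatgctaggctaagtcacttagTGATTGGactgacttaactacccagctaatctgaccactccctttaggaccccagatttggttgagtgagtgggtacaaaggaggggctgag
H2-DMa, chr17:34122692-34122831, plus strand: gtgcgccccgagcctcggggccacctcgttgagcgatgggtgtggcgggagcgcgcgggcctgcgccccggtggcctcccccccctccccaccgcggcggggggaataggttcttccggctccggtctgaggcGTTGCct

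In 4 of these 5 genes an X box core stood before the Y box core, at a gap of 26 bases in H2-Aa, 20 in H2-Eb1 and 21 in both H2-DMb1 and H2-DMb2. H2-DMa held a GCAAC on the opposite strand of its first start, printed above, and neither start held the arrangement. Over all 32851 RefSeq promoters, 7.23% held TGATTGG in the 250 bases before the start, 1.99% held AACNGATG and 29.9% held GCAAC. An X box core 5 to 45 bases before TGATTGG on the same strand was found in 0.329% of them. The related class II genes H2-Oa, H2-Ob and H2-Eb2 held it too, at gaps of 26, 23 and 20 bases. A match of letters is a description of the sequence and no evidence of binding, and H2-Ab1, Cd74 and Ciita were not searched.

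**Figure D1:**
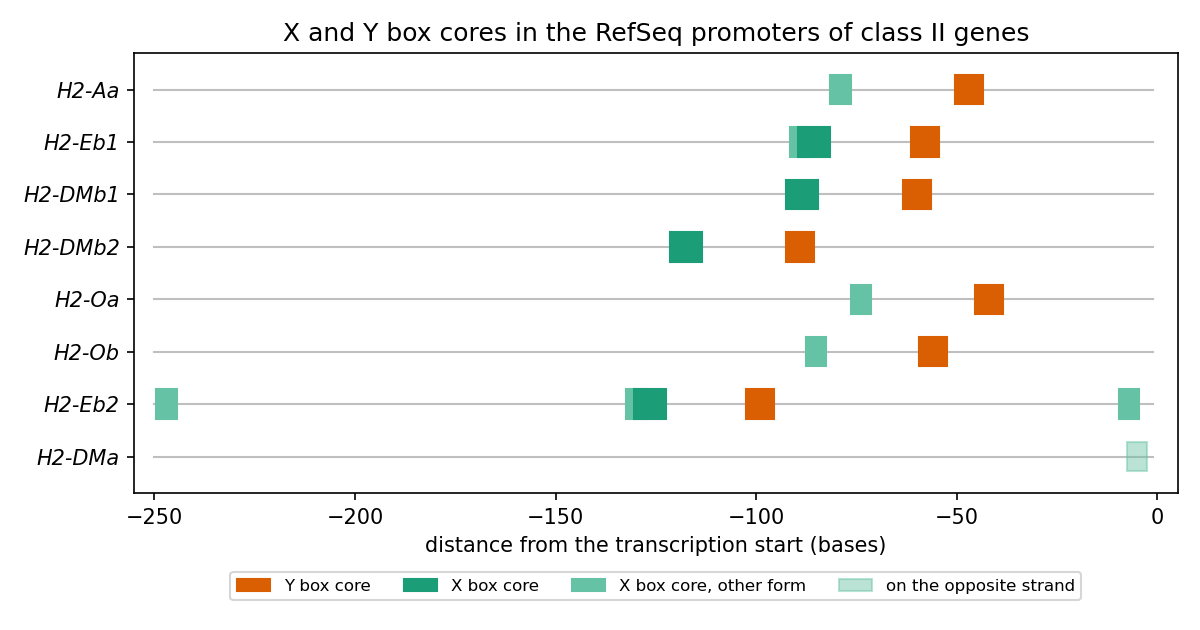
Positions of X and Y box cores in the 250 bases before the RefSeq start of 8 class II genes, with distance from the start in bases on the x axis and one line per gene; for H2-DMa the first of its starts is drawn. In all genes drawn except H2-DMa an X box core lies 20 to 26 bases before the Y box core.

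By GENCODE annotation of mm10, 6 of the members lie together on chromosome 17. H2-DMa spans 34119541 to 34139101, H2-DMb2 34143307 to 34151555, H2-DMb1 34153072 to 34160230, H2-Ab1 34257689 to 34269419, H2-Aa 34282744 to 34287823 and H2-Eb1 34305867 to 34316674. H2-Aa alone of these is on the minus strand. Ciita lies on chromosome 16 from 10480059 to 10528418, and Cd74 on chromosome 18 from 60803848 to 60812652. All 8 are annotated as protein-coding. Up to 360 exonic bases of H2-DMa are also exon of Brd2 on the other strand, and 329 of Ciita are exon of Dexi on the other strand. Whether strand was used is not stated here, and reads from these stretches may then not be told apart. H2-DMb1 and H2-DMb2 are near copies: 22.7% of the 50-base words of H2-DMb1 transcripts also occur in H2-DMb2, so the split of reads between them is uncertain. The other 6 members shared no such word with another class II gene.

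All 6 members that passed the filter of a mean of at least 1 FPKM were lower on HFD, with log2 fold changes of −0.42 to −0.65, and none passed the test. The 4 most abundant were Cd74, H2-Aa, H2-Ab1 and H2-Eb1, whose HFD means were 0.683, 0.637, 0.678 and 0.606 of their NC means. H2-DMb2 and Ciita stayed under the filter, so they are given by their values only. With limma and Benjamini-Hochberg adjustment, 0 of the 6 had an adjusted p under 0.05, as did 0 of all 11456 tested genes (0%). At an unadjusted p under 0.05, H2-Eb1 alone of the 6 was lower, against 2.3% of all tested genes (264 lower genes, and 415 in both directions). This count of 1 was 0 without NC 1 or without HFD 1, 2 without HFD 3, 3 without HFD 2 and 4 without NC 2. The 415 of all 11456 tested genes became 340 without NC 1 and 420 without HFD 1. They became 677 without HFD 3, 506 without HFD 2 and 508 without NC 2. The 3 HFD libraries lay below the 3 NC libraries in H2-Eb1 alone, 1 of 6 members, against 4.88% of all tested genes. The median log2 fold change of the 6 was −0.53, and that of all tested genes −0.02. Of all tested genes 53.1% were lower on HFD (6083 genes, but 4727 without HFD 1 and 7605 without HFD 3). The members also moved together between libraries, so their 6 directions are not independent.

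In each of the 6 the range within NC was wider than the difference between the diet means. NC 1 held the highest value in 5 of the 6 tested members, and HFD 1 the lowest in 5 of 6. Without NC 1 the median log2 fold change of the 6 was −0.29, and without HFD 1 it was −0.38, with all 6 still below 0 in both. NC 1 was also the highest library in 6 of 9 pan-leukocyte markers, and in HFD 1 the summed FPKM was the lowest of the series, with 4 mitochondrial genes listed at 0 that were above 100 FPKM elsewhere. Their part in the class II values was not tested. In RNA of heart tissue, fewer cells of a type and less RNA per cell cannot be told apart. Summed FPKM per library ran from 576334 to 739406, and heart muscle genes were abundant in all libraries (Myh6 between 1263 and 2020 FPKM). Atrial markers varied widely within both diets (Nppa between 227 and 9404 FPKM). Bmp10 was at 16.6, 0.0166 and 99.2 FPKM in NC 1, 2 and 3, and at 0, 0.0639 and 87.4 FPKM in HFD 1, 2 and 3. The libraries may therefore differ in their share of atrial tissue, which was not tested.

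**Figure D2:**
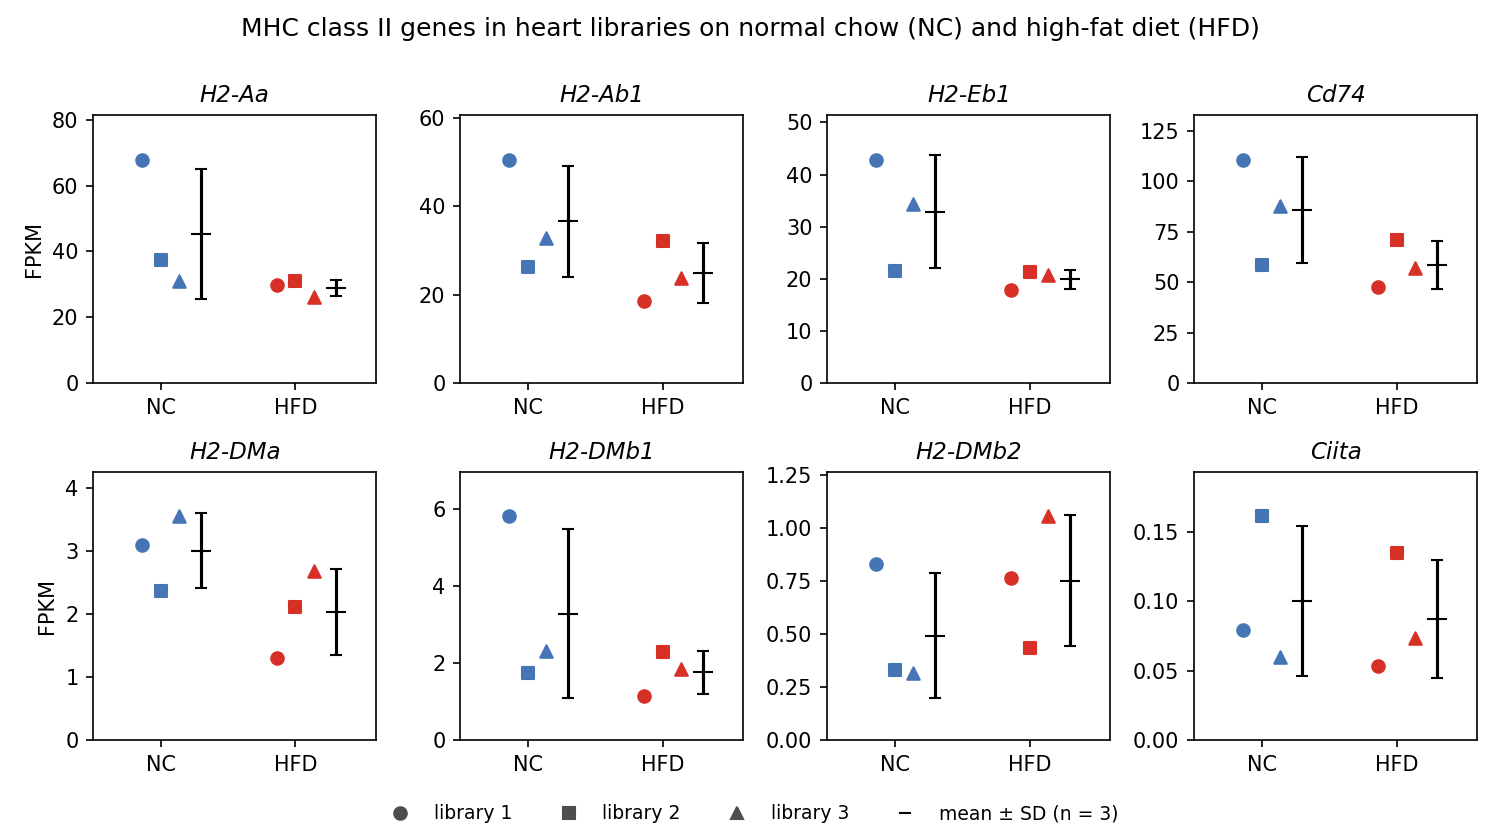
FPKM of the 8 class II genes in each library (y axes start at 0 and differ between genes), with mean ± SD of 3 libraries per diet; marker shapes give the library number. NC 1 is highest in H2-Aa, H2-Ab1, H2-Eb1, Cd74 and H2-DMb1, and the diets overlap in every gene except H2-Eb1.

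H2-Aa and H2-Ab1 encode the alpha and beta chains of the I-A molecule. Libraries are given in the order 1, 2, 3 throughout. H2-Aa was at 67.9, 37.4 and 30.9 FPKM in the chow libraries, against 29.6, 31.0 and 26.2 FPKM in the HFD libraries. NC 1 stood far above the rest, and HFD 2 lay just above NC 3, so that the diets overlapped. The means were 45.4 ± 19.8 and 29.0 ± 2.50 FPKM (SD, n = 3 each), and the log2 fold change was −0.55 (SE 0.27, limma adjusted p = 0.9998). It was −0.23 without NC 1. H2-Ab1 was at 50.6, 26.3 and 32.9 FPKM in the chow libraries, against 18.7, 32.1 and 23.8 FPKM in the HFD libraries. HFD 2 was above NC 2, and HFD 1 was the lowest library. The means were 36.6 ± 12.6 and 24.8 ± 6.77 FPKM (SD, n = 3 each), and the log2 fold change was −0.52 (SE 0.27, limma adjusted p = 0.9998). It was −0.27 without NC 1 and −0.34 without HFD 1.

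H2-Eb1 encodes the beta chain of the I-E molecule, the other classical class II pair of the mouse. It was at 42.9, 21.4 and 34.4 FPKM in the chow libraries, against 17.8, 21.2 and 20.7 FPKM in the HFD libraries. All HFD values lay below all NC values, but HFD 2 and NC 2 were nearly level. The log2 fold change was −0.65 (SE 0.26, limma unadjusted p = 0.0263 and adjusted p = 0.9998), with means of 32.9 ± 10.8 and 19.9 ± 1.84 FPKM (SD, n = 3 each). The gene of its alpha chain partner, H2-Ea-ps, which is annotated as a polymorphic pseudogene, was not analysed here. H2-Eb2, a related beta chain gene, was at most at 0.0990 FPKM and was listed at 0 in 3 libraries.

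Cd74 was the most abundant member, in rank 634 of all genes by mean FPKM. It was at 111, 58.4 and 87.8 FPKM in the chow libraries, against 47.6, 71.0 and 56.8 FPKM in the HFD libraries. NC 1 and NC 3 were above all HFD libraries, while NC 2 lay below HFD 2. The means were 85.6 ± 26.2 and 58.5 ± 11.8 FPKM (SD, n = 3 each), and the log2 fold change was −0.51 (SE 0.26, limma adjusted p = 0.9998). It was −0.31 without NC 1.

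The DM genes, whose product edits the peptide in the groove, were far less abundant than the classical chains. H2-DMa, the alpha chain, was at 3.09, 2.37 and 3.55 FPKM in the chow libraries, against 1.30, 2.11 and 2.68 FPKM in the HFD libraries. HFD 3 was above NC 2, and the lowest value was that of HFD 1. Its log2 fold change of −0.42 (SE 0.25, limma adjusted p = 0.9998) was −0.23 without HFD 1. H2-DMb1, a beta chain gene, was at 5.80, 1.74 and 2.30 FPKM in the chow libraries, against 1.15, 2.27 and 1.84 FPKM in the HFD libraries. NC 1 was more than double any other library, and the remaining 5 libraries were mixed between the diets. Its log2 fold change of −0.54 (SE 0.32, limma adjusted p = 0.9998) was −0.15 without NC 1.

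H2-DMb2, the near copy of H2-DMb1, had the higher mean on HFD. It was at 0.832, 0.329 and 0.317 FPKM in the chow libraries, against 0.764, 0.436 and 1.06 FPKM in the HFD libraries. The HFD mean of 0.752 ± 0.310 was above the NC mean of 0.493 ± 0.294 FPKM (SD, n = 3 each), with wide overlap. Without the filter its log2 fold change was 0.23 (SE 0.20, limma adjusted p = 0.984). The ratio of H2-DMb1 to H2-DMb2 was 6.97, 5.29 and 7.25 in the NC libraries and 1.51, 5.21 and 1.74 in the HFD libraries. HFD 2 came close to the NC libraries, and the other two HFD libraries were well below them. Because the genes share sequence, this ratio may carry misassigned reads, which was not tested.

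Ciita, the class II coactivator gene, was the least abundant member. It was at 0.0793, 0.161 and 0.0597 FPKM in the chow libraries, against 0.0531, 0.135 and 0.0739 FPKM in the HFD libraries. Library 2 of each diet was the highest and the diets overlapped entirely. The difference of log2(FPKM + 1) was −0.02, and without the filter the limma adjusted p was 0.988. It ranked 16704 of 23808 by mean FPKM, and no direction can be read at this level. H2-Oa and H2-Ob encode the DO molecule, an inhibitor of DM found mainly in B cells. H2-Oa was at 1.22 FPKM in NC 1, was listed at 0 in NC 3 and HFD 1 and was at most at 0.174 FPKM elsewhere. H2-Ob was at 0.325 to 0.582 FPKM on NC and at 0.384 to 0.972 FPKM on HFD.

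The order of levels within a library was stable at its ends and not in its middle. Cd74 exceeded H2-Aa in 6 of 6 libraries, by a median ratio of 1.90 (range 1.56 to 2.84). H2-Aa exceeded H2-Ab1 in 4 of 6 (median ratio 1.22), and H2-Ab1 exceeded H2-Eb1 in 5 of 6 (median 1.16), so the 3 classical chains did not differ in level beyond their spread. H2-Eb1 exceeded H2-DMa by a median ratio of 9.88 (range 7.74 to 13.9) and H2-DMb1 by 11.8, in all 6 libraries. H2-DMa exceeded H2-DMb1 in 4 of 6 libraries. H2-DMb1 exceeded H2-DMb2, and H2-DMb2 exceeded Ciita, in 6 of 6.

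Among the tested members the levels moved together from library to library, and H2-DMa least. Pearson's r of log2(FPKM + 1) over the 6 libraries, given as a description, had a median of 0.801 over the 15 pairs. The highest was 0.971, for H2-Ab1 with Cd74, and the lowest 0.339, for H2-Aa with H2-DMa. With the diet means taken off, the median was 0.680, and H2-Aa with H2-DMa came to −0.14. These libraries share NC 1, which was high in both genes of most pairs.

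The 8 other genes with the pattern most like the mean of H2-Aa, H2-Ab1, H2-Eb1 and Cd74 had Pearson's r of 0.967 to 0.985 over 6 libraries. They included the lysyl oxidase family gene Loxl3 (r = 0.985), Haus4 (0.977), Mest (0.976), the peroxisomal membrane gene Pxmp2 (0.973), Mustn1 (0.971), Polr1c (0.968), which encodes a subunit of RNA polymerases I and III, and the signalling inhibitor gene Spry1 (0.967). Loxl3 was at 2.39, 1.27 and 1.63 FPKM in the chow libraries, against 0.860, 1.11 and 1.03 FPKM in the HFD libraries, again with NC 1 highest and HFD 1 lowest. In all, 22 of the 11456 tested genes reached r of 0.95, of which 4 were members. H2-Ab1, Cd74 and H2-Eb1 among them are part of the mean itself, so their r is built in, and H2-DMb1 is the other. H2-Aa, also part of the mean, had r = 0.868 and rank 154. How many genes would reach 0.95 over 6 libraries by chance was not computed.

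Genes that act before and after the class II molecule were described from lists, by counts and medians, and none of their genes passed the limma test. Beside the counts of all lists below, 53.1% of all tested genes were lower on HFD. Of 7 tested factors that sit on class II promoters, 5 were lower and 2 higher on HFD (median log2 fold change −0.08), and without HFD 2 this was 3 lower and 4 higher (median 0.07). They included Rfx5 (0.32, SE 0.25), which encodes the DNA-binding subunit of the X box factor RFX, Nfyc (−0.20), Nfya (0.10) and Rfxap (−0.08). These factor genes were well above Ciita, with Rfxap between 10.4 and 12.9 FPKM in the 6 libraries. Of 10 tested genes of endosomal processing, 9 were lower (median −0.17), but 5 without HFD 2 (median −0.02), and the median was −0.06 without NC 1. Ctss, the protease that trims the invariant chain, had a log2 fold change of −0.33 (SE 0.30). Ifi30, a lysosomal thiol reductase, had a log2 fold change of −0.24, with means of 5.74 ± 0.203 FPKM in chow libraries and 4.73 ± 0.650 FPKM in HFD libraries (SD, n = 3 each), and Ctsz had −0.22. Cst3, the cathepsin inhibitor cystatin C, had a log2 fold change of −0.19, with means of 797 ± 62.3 and 696 ± 17.8 FPKM (SD, n = 3 each). In Ifi30 and Cst3, 2 of the 10 tested processing genes, the 3 HFD values lay below the 3 NC values, against 4.88% of all tested genes.

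Interferon gamma is the main inducer of Ciita, and its list held signalling genes together with target genes such as Gbp2, Cd274 and Cxcl9. Of 12 tested genes, 10 were higher and 2 lower on HFD (median log2 fold change 0.18). Gbp2, an interferon-induced GTPase gene, had a log2 fold change of 0.48 (SE 0.26), Cd274 0.34 and the kinase gene Jak2 0.31. Socs1, a feedback inhibitor of this pathway, was at 2.67, 3.49 and 3.36 FPKM in the chow libraries, against 0.621, 1.69 and 1.34 FPKM in the HFD libraries. All HFD values of Socs1 were below all NC values (log2 fold change −0.94, SE 0.25, limma unadjusted p = 0.00237 and adjusted p = 0.881). Socs1 was 1 of the 12 tested genes, and no other had such a separation or a limma unadjusted p under 0.05. Of all tested genes, 4.88% had all HFD values below all NC values, and 2.3% were lower at that p. Ifng itself was listed at 0 in 4 libraries and reached 0.163 FPKM.

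Class I presentation, which shows peptides from inside the cell to CD8+ T cells, was set beside class II. Of 11 tested class I genes 9 were higher on HFD and 2 lower (median log2 fold change 0.20), but without HFD 2 only 3 were higher and 8 lower (median −0.11). H2-K1, a class I heavy chain, was at 155, 122 and 147 FPKM in the chow libraries, against 146, 261 and 135 FPKM in the HFD libraries. HFD 2 stood out, and the other libraries were alike (log2 fold change 0.29, SE 0.26). Tapbp had a log2 fold change of 0.25, B2m 0.26 and the immunoproteasome gene Psmb10 −0.26.

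The log2 ratio of each of the 4 abundant class II genes to H2-K1 was compared between diets within libraries, where a scaling factor of a library cancels. For H2-Aa it was −1.72 ± 0.531 on NC and −2.58 ± 0.428 on HFD (SD, n = 3 each). The change of the ratio was −0.86 for H2-Aa, −0.83 for H2-Ab1, −0.96 for H2-Eb1 and −0.81 for Cd74. In each of the 4 ratios all HFD libraries were below all NC libraries, against 7.96% of 11416 tested genes set over H2-K1 in the same way (exact two-sided permutation p = 0.1, and 0.1 adjusted over 4 ratios). With 3 against 3 libraries 0.1 is the smallest p possible, so the design cannot reach 0.05. The ratios share H2-K1, whose high value in HFD 2 lowers all of them in that library. Ratios to other class I genes were not computed. H2-D1, another class I heavy chain, had a log2 fold change of 0.17, against 0.29 for H2-K1. Without HFD 2 the changes of the ratios were −0.62, −0.74, −0.71 and −0.67 for H2-Aa, H2-Ab1, H2-Eb1 and Cd74, and the diets still did not overlap. With fewer libraries a separation is easier to reach, and the share of all genes without HFD 2 was not computed. For H2-Aa the margin was narrow, with NC 3 at −2.25 and HFD 1 at −2.30.

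**Figure D3:**
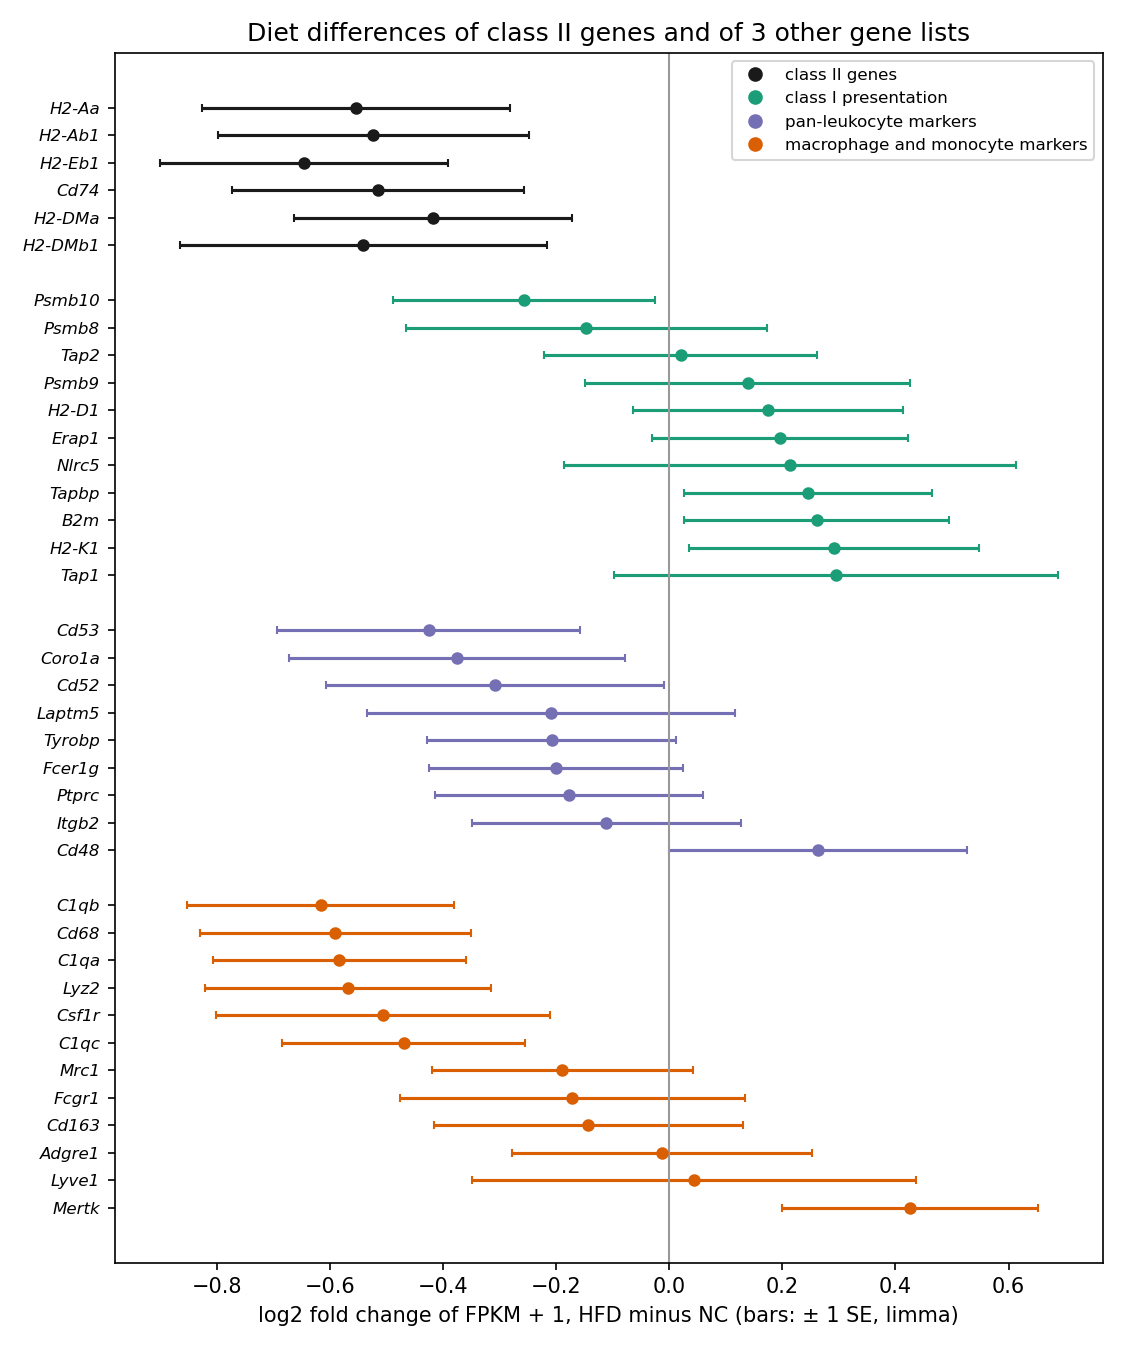
Log2 fold change of FPKM + 1 (x axis, HFD minus NC) with ± 1 SE for the 6 tested class II genes and the tested members of 3 other lists, 1 gene per line. All 6 class II genes lie between −0.42 and −0.65, class I genes lie on both sides of 0, and 10 of 12 macrophage and monocyte markers lie below 0.

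The class I processing genes sit inside the class II region, so position could be set beside the values. Between H2-Oa and H2-Ea-ps, chromosome 17 from 34092340 to 34344645, 10 genes were tested, of which 5 are members. The other 5 were Brd2 (log2 fold change 0.04), Psmb9 (0.14), Tap1 (0.29), Psmb8 (−0.15) and Tap2 (0.02). In all 5 the diets overlapped. Psmb9, Tap1, Psmb8 and Tap2 lie between H2-DMb1 and H2-Ob, with lower members on both sides. Brd2, which shares exonic bases with H2-DMa, was at 15.6 to 22.1 FPKM, several times the level of H2-DMa.

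Markers of cells that carry class II were counted as well. Of 12 tested macrophage and monocyte markers 10 were lower on HFD (median log2 fold change −0.33), and 7 without NC 1 (median −0.22). Their summed FPKM over all 15 markers was 221 to 331 on NC and 167 to 221 on HFD. C1qa, a complement gene of resident macrophages, was at 59.8, 51.8 and 65.3 FPKM in the chow libraries, against 33.3, 50.8 and 34.6 FPKM in the HFD libraries, without overlap. All HFD values lay below all NC values in 3 of the 12 tested markers, against 4.88% of all tested genes. They lay above all NC values in 1 of the 12, Mertk, against 372 of all 11456 tested genes. The log2 fold change was −0.58 (SE 0.22) for C1qa, −0.62 (SE 0.24) for C1qb, −0.59 (SE 0.24) for the lysosomal marker gene Cd68 and −0.57 (SE 0.25) for the lysozyme gene Lyz2. None passed (limma adjusted p = 0.9998 each). The 2 higher markers were Mertk (0.43, SE 0.23) and Lyve1 (0.04, SE 0.39), named after their values were seen. Of 9 pan-leukocyte markers 8 were lower (median −0.21), among them Cd53 (−0.43), Coro1a (−0.37) and Cd52 (−0.31), while Cd48 had 0.26. Without NC 1 the median was −0.06, with 6 of 9 lower. Their sum was 51.2 to 79.6 FPKM on NC and 49.1 to 55.5 FPKM on HFD.

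Most markers of other carriers stayed under the filter, which is no measure of cell numbers. Only 3 of 11 dendritic cell markers passed the filter, Clec10a (log2 fold change −0.44, SE 0.28), Clec9a (0.24) and Zbtb46 (0.15), and the sum of the list was 8.87 to 11.8 FPKM on NC and 8.65 to 11.5 FPKM on HFD. Flt3 and Cd209a were listed at 0 in some libraries. Ccr7, the receptor that guides migrating dendritic cells, was at 0.374, 0.342 and 0.354 FPKM in the chow libraries, against 0.0848, 0.0237 and 0.0306 FPKM in the HFD libraries. It was under the filter and was named after its values were seen. Of the other markers under the filter, Itgax, Flt3, Xcr1 and Batf3 had higher means on HFD, and Cd209a, Irf4 and Siglech lower means. In Clec9a, 1 of the 3 tested markers, all HFD values lay above all NC values, as in 372 of all 11456 tested genes. Of 11 B cell markers 3 were tested and all 3 were lower, Igkc (−0.38), Cd79b (−0.17) and Ighm (−0.11). Their sum was 7.78 to 14.5 FPKM on NC and 6.82 to 10.2 FPKM on HFD, with Blk, Cr2 and Fcer2a at 0 in some libraries. Of 9 T cell markers 2 were tested, Cd247 (−0.45) and Trac (−0.03), with sums of 4.33 to 9.28 and 4.61 to 5.90 FPKM and with Cd3d and Cd8a at 0 in some libraries. Neutrophil markers reached 5.05 FPKM in sum, and S100a9, the only one tested, had a log2 fold change of 0.27. Of 9 genes of T cell contact 3 were tested and had higher means on HFD with all libraries (1 of 3 without HFD 2), Ctla4 (0.37), Cd40 (0.24) and Icam1 (0.12).

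Set against pan-leukocyte markers in the same library, the class II level was lower in every HFD library than in every NC library. The margin was narrow, with NC 2 at 2.80 and HFD 2 at 2.70. The mean log2(FPKM + 1) of the 4 abundant class II genes minus that of 9 pan-leukocyte markers came to 3.07, 2.80 and 2.89 on NC. On HFD it came to 2.50, 2.70 and 2.45. Against 12 macrophage and monocyte markers the difference was 2.43, 2.06 and 1.98 on NC and 1.90, 2.08 and 1.66 on HFD, and here HFD 2 lay above NC 2 and NC 3. Against 8 endothelial markers, all of them higher on HFD with all libraries and 5 of 8 without NC 3 (median log2 fold change 0.14 and 0.04, Pecam1 0.54), it was 0.47, −0.13 and 0.35 on NC and −0.70, −0.41 and −0.42 on HFD. These differences are given with no p, since the genes were chosen as a list. The share of all genes whose diets do not overlap against the same lists was not computed, so the separation has no background beside it. With the mean of the pan-leukocyte markers as a covariate the median log2 fold change of the 6 tested class II genes was −0.27, and the 6 lay between −0.38 (H2-Eb1) and −0.12 (H2-DMb1). Cardiomyocyte markers were lower in 7 of 8 (median −0.23, Tnni3 −0.44). Atrial markers were lower in 7 of 8 (median −0.18), but in 1 of 8 without NC 3 (median 0.38), 2 of 8 without HFD 2 (median 0.26) and 8 of 8 without NC 2 (median −1.86).

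**Figure D4:**
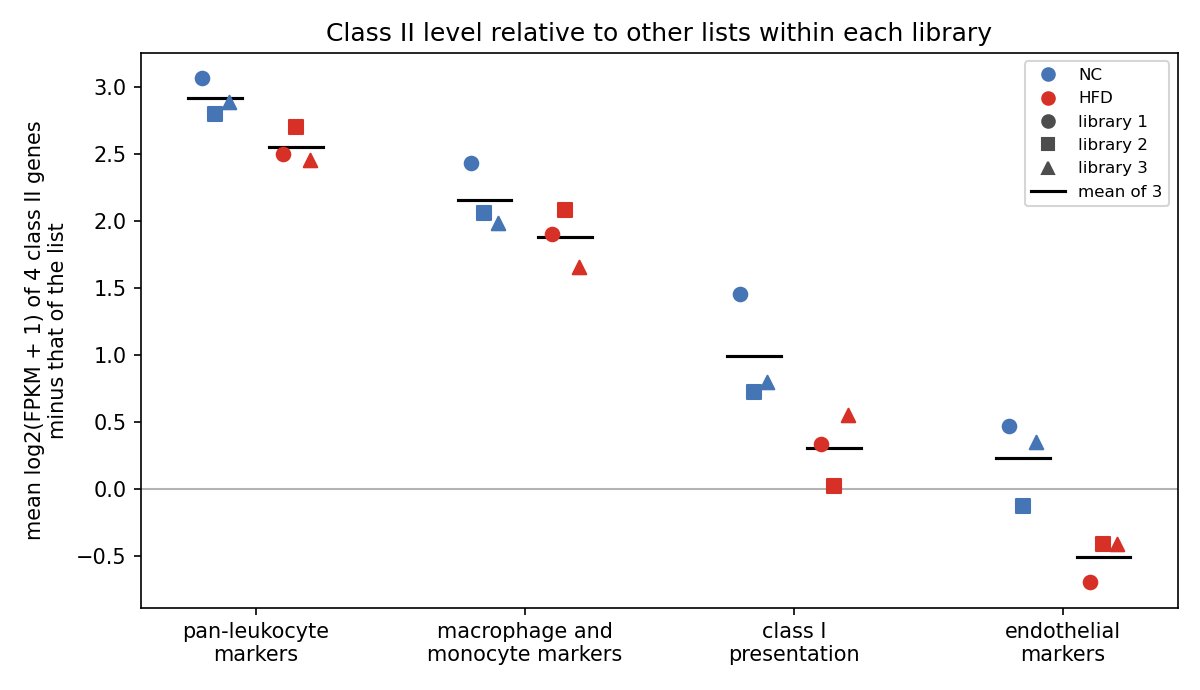
Mean log2(FPKM + 1) of H2-Aa, H2-Ab1, H2-Eb1 and Cd74 minus that of 4 other lists (y axis) in each library, with lines at the mean of 3 libraries per diet. The diets do not overlap against pan-leukocyte, class I and endothelial lists, and overlap against macrophage and monocyte markers, where HFD 2 at 2.08 lies above NC 2 at 2.06. The share of all genes without overlap against these lists was not computed.

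**Figure D5:**
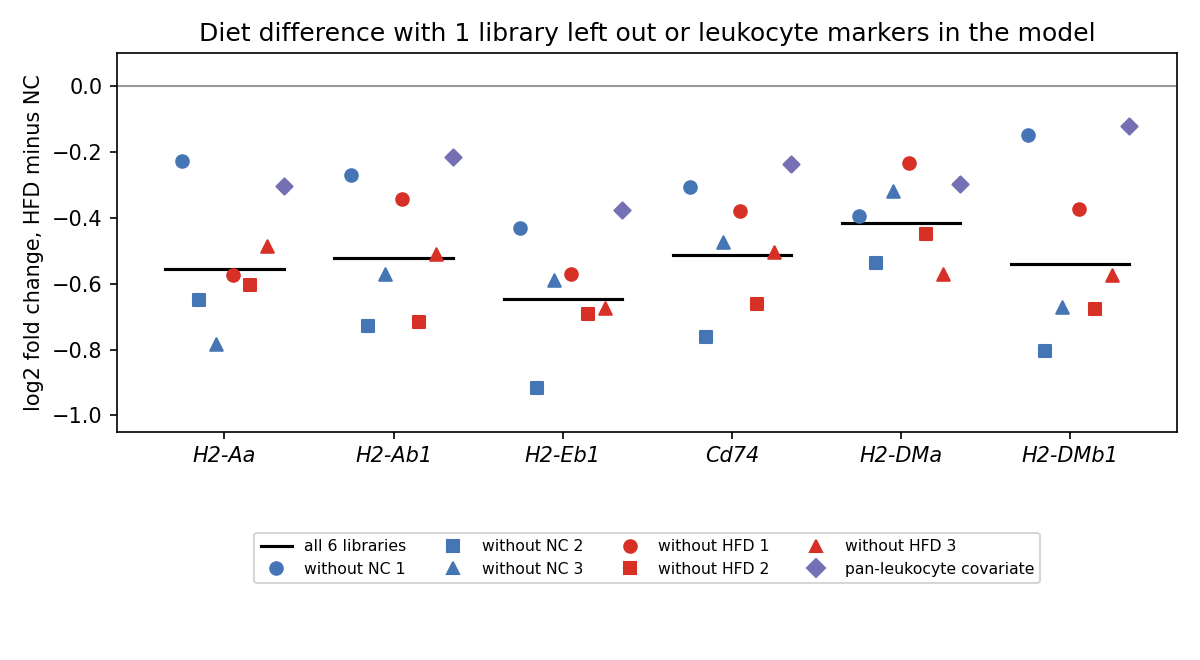
Log2 fold change (y axis, HFD minus NC) of the 6 tested class II genes with all libraries (line), with each library left out (points) and with the pan-leukocyte mean as a covariate (diamond). All values stay below 0, and the smallest differences come without NC 1 for every gene except H2-DMa, apart from the covariate.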

How the data were processed

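Per the labels, 6 mRNA-seq libraries of heart RNA were made, 3 per diet. The authors deposited FPKM per gene and library. The program behind FPKM, the depth and the strand setting: not given in the sources used here. Tools named, without roles, in the submitters' processing notes are HISAT2 2.2.1 and HTSeq 0.13.5 besides Trimmomatic 0.38 and FastQC 0.11.9. They also list DESeq2 1.18.1, R 3.4.1 and build mm10. Symbols were matched by gene identifier for 23718 of 23808 genes. Low values showed no steps of single reads, so counts were not recovered.

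Values were taken as log2(FPKM + 1), which understates changes of low genes, for the 11456 genes whose mean FPKM was 1 or more. The test was that of limma 3.58.1, run in R 4.3.3 (HFD minus NC, trend, two-sided, Benjamini-Hochberg over all tested genes, threshold 0.05, no covariates), a script tested on simulated data. Single ratios had exact permutation tests (scipy 1.17.1). Coordinates are from GENCODE M21.

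Members and the 16 lists were chosen with earlier results of these data known. Named genes are the members, up to 4 tested genes of a list with the smallest p, and the 8 non-members with the highest r, without predicted models, of which 1 is not reported here. Alternatives were 2 pseudocounts, 2 filters, 2 scalings, 2 variance models, a replicate block, a leukocyte covariate and each library left out. The ratios to H2-K1 with their permutation tests, and the class II level against class I and endothelial lists, were not planned beforehand. List counts with each library left out and ratios without HFD 2 were added after seeing the data.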

Additional observations from a re-analysis of the deposited data

How the results depend on the processing

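In the alternatives run, each of the 6 tested class II genes kept its negative sign and stayed above an adjusted p of 0.05, and 0 class II genes passed (H2-DMa and H2-DMb1 could not be fitted with a filter of 5 FPKM). With 1 library left out their median log2 fold change ran from −0.746 (without NC 2) to −0.288 (without NC 1). It was −0.67 with library weights, −0.48 after quantile normalization, −0.52 with median-of-ratios scaling and −0.27 with the leukocyte covariate, against −0.53. The number of genes passing over the whole table was 0 except for 73 with the replicate number as a block and 1 without NC 2 (range 0 to 1 with 1 library left out). The 73 are not secure calls: the block leaves 2 residual degrees of freedom, limma then set every gene to the fitted common spread (infinite prior degrees of freedom, smallest adjusted p 1.42e-93), and the diets overlapped in 37 of the 73. Replicate numbers were not taken to pair libraries, since they are not said to do so. Same-numbered libraries deviated from their diet means with correlations of 0.193, 0.0864 and 0.275. Pairs of unlike number ran from −0.361 (NC 3 with HFD 1) to 0.251 (NC 2 with HFD 1). The atrial marker Nppa was highest in library 3 and lowest in library 2 of each diet. Whether the numbers mark something that libraries share was not tested. With the block the smallest adjusted p among the class II genes was 0.573, for H2-Eb1. At an unadjusted p under 0.05 the class II count of 1 became 4 with library weights, 5 with the block, 2 with quantile normalization and 0 with the covariate. Over all 11456 tested genes the count of 415 became 504, 608, 573 and 301 in the same settings. The 5 with the block come from the same fit as the 73 and are no more secure. Of the 2 members below the filter, Ciita ranged from −0.048 to 0.023 with 1 library left out, turning positive without NC 2 and without HFD 1 (0.0065), and the cause was not tested. H2-DMb2 ranged from 0.11 (without HFD 3) to 0.389 (without NC 1). Unknown depth limits what can be said of genes under 1 FPKM.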
